A study of Homo sapiens with 6 samples.

Results

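RNA levels of 10 surface antigens of myeloma cells and their B-lineage precursors were followed in MM.1S cells exposed to enzastaurin. They were TNFRSF17 (BCMA), TNFRSF13B (TACI), SDC1 (CD138), CD38, SLAMF7, CD27, CD28, CD6, CD79A and CD79B. Every probe set that the platform annotation gives exactly 1 symbol, with that symbol among the 10, was taken, which gave 16 of the 22277 probe sets on the array. An intensity filter, explained below, left 11 of the 16 probe sets and 7 of the 10 genes, among 6837 genes tested in all.

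MM.1S is an established, dexamethasone-sensitive human multiple myeloma line, and enzastaurin is an inhibitor of protein kinase C beta. Cells were given enzastaurin for 3, 6 or 12 h, and the control at each time was untreated cells. There were 6 arrays, 1 for each treatment and time, so 3 arrays carried enzastaurin RNA and 3 carried untreated RNA. The labels give neither a dose nor a vehicle, and they do not say that the arrays came from separate cultures, so the p-values reflect only how these 6 arrays vary, and part of that may be technical. All results come from 1 line and concern RNA, not protein at the cell surface. In such bulk RNA, fewer cells with a transcript and less of it in each cell cannot be told apart.

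BCMA and TACI are receptors of the tumor necrosis factor family that bind the ligands APRIL and BAFF. BCMA signaling sustains long-lived plasma cells, and its extracellular part is cut from the membrane by gamma-secretase. CD138, a heparan sulfate proteoglycan, and CD38, an ectoenzyme that consumes NAD, define plasma cells in flow cytometry. SLAMF7 is a self-ligand receptor of the SLAM family. Antibodies or engineered T cells against BCMA, CD38 and SLAMF7 are used to treat myeloma. CD27 and CD28 are co-stimulatory receptors better known from T cells and also found on plasma cells. CD6 is a scavenger receptor family protein of T cells and some B cells, and CD79A and CD79B are the signaling chains of the B cell receptor, which plasma cells largely give up.

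Promoter sequences from RefSeq (GRCh38.p14) were at hand for 6 of the 10 genes, in 7 windows. The 250 bases before the start are printed for SDC1, whose level fell, from both of its listed starts, and for CD28, whose tested probe set had a ratio of the other sign at 6 and 12 h (its other kept probe sets at 12 h alone). All are 5′ to 3′ in the direction of the gene, and capitals mark a motif on either strand. The downstream SDC1 start has the window chr2:20225131-20225380 (minus strand), the other has chr2:20225476-20225725 (minus strand), and CD28 has chr2:203706389-203706638 (plus strand).
SDC1, downstream start: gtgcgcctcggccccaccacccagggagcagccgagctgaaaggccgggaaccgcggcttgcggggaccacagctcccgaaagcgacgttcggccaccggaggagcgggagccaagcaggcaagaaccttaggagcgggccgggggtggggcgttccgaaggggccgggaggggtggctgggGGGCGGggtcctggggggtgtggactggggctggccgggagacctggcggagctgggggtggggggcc
SDC1, upstream start: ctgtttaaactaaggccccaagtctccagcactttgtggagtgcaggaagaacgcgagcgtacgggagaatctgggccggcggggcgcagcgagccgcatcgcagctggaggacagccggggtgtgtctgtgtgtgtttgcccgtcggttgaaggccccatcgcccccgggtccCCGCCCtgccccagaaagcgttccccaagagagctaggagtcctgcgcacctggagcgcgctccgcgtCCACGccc
CD28: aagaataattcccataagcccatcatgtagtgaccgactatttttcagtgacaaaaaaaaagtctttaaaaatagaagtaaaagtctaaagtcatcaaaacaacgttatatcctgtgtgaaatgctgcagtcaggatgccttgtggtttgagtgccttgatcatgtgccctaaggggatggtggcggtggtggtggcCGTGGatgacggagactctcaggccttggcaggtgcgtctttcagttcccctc
Both strands were searched for 7 motifs. These were a loose form of the AP-1 site as TGANTCA (N being any base), the cyclic AMP response element as TGACGTCA and the enhancer box as CACGTG. The others were the end of the unfolded protein response element as CCACG, the LEF1 family site as CTTTGA, the Sp1 site (GC box) as GGGCGG, and the box of core promoters bound by TBP as TATAAA. The SDC1 windows hold a GC box 68 and 76 bases before the start, and the second also holds CCACG 8 bases before it. The CD28 window holds CCACG on the reverse strand, 53 bases before the start. The CD38 window also holds CCACG, 75 bases before the start, and the TNFRSF13B window a GC box at 66 bases. The CD27 window holds TGAATCA, a match to the loose TGANTCA with A in the middle, at 236 bases. The CD79A window held none of the 7 motifs. Of 35116 promoter windows of this length, 42.6% hold the GC box, 33.5% CCACG and 6.57% the loose TGANTCA. Each match is a description of letters only.

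The intensities are MAS5 values on a linear scale, and a log2 ratio is that of enzastaurin over untreated cells at the same time. The median intensity over all probe sets was 62.2 to 67.6 on the 6 arrays. A probe set was kept when its geometric mean over the arrays was at least 63.3, the upper 50% of all, and each gene was tested through its kept probe set of highest mean. No level is compared between probe sets, whose hybridization differs. All 9 plasma cell markers listed for the check of cell identity passed the filter. Their summed intensity was 19233 to 25494 on the untreated and 18999 to 22311 on the enzastaurin arrays. None of 9 measured T and NK cell markers passed, with single intensities of 4.41 to 54.6 and sums of 270 to 298 untreated and 278 to 312 with enzastaurin, and none of 6 measured monocyte markers passed, with sums of 105 to 175 and 125 to 166. Of 5 measured mature B cell markers CD22 and CR2 passed, with sums of 486 to 682 and 576 to 805.

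Arrays differed in a measure that has to be read beside all results. The mean log2 intensity of 6 ribosomal RNA control probe sets was 5.31 to 5.70 on 3 arrays (untreated at 3 h, enzastaurin at 6 and 12 h) and 9.24 to 10.94 on the other 3. Enzastaurin minus untreated, it was 4.22 at 3 h, -5.24 at 6 h and -3.93 at 12 h. The log2 ratio of 3′ to 5′ ACTB probe sets was 1.16 and 1.60 in untreated cells at 6 and 12 h, and 0.57 and 0.86 with enzastaurin. At 3 h it was highest, at 1.89 untreated and 2.0 with enzastaurin, so it did not follow the ribosomal RNA signal there. Of the 6837 genes, 37.5% had a ratio at 3 h of opposite sign to both later ratios, as did 5 of the 7 tested antigens (SDC1, SLAMF7, CD28, CD6 and CD79B).

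TNFRSF17, the gene of BCMA, had the largest loss among the antigens. Its intensity in untreated cells was 3003 at 3 h, 4308 at 6 h and 4474 at 12 h. With enzastaurin it was 2970, 2119 and 528. The treated and untreated arrays were alike at 3 h and drew apart afterwards, the untreated level higher and the treated level lower at each later time. The log2 ratio was -0.02 at 3 h, -1.02 at 6 h and -3.08 at 12 h, which is 2.03-fold lower at 6 h and 8.48-fold lower at 12 h. At 12 h this was the 9th lowest ratio of the 6837 genes, and at 6 h the 204th lowest.

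**Figure D1:**
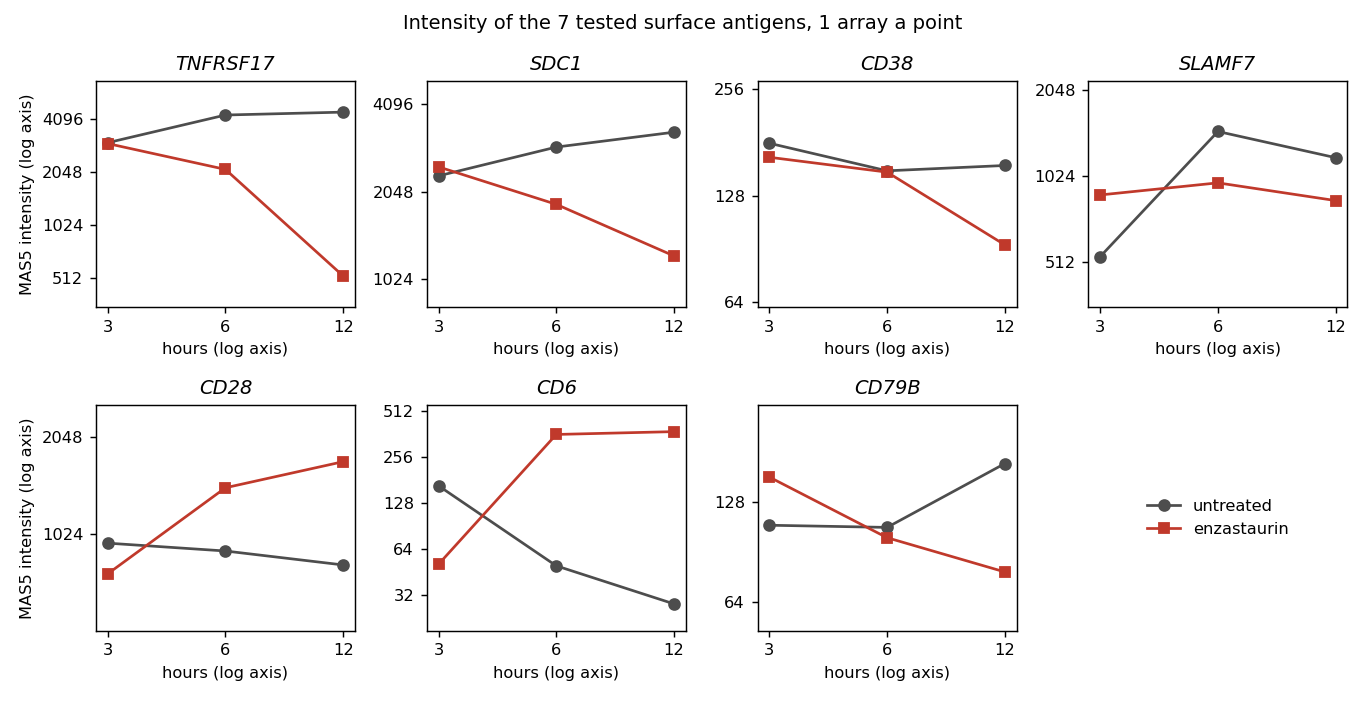
MAS5 intensity (log axis) of the kept probe set of each tested antigen against hours of culture (log axis), with 1 array a point, untreated in grey and enzastaurin in red. TNFRSF17 and SDC1 start together at 3 h and part, to 4474 against 528 and 3278 against 1229 at 12 h, while the CD6 lines cross between 3 and 6 h.

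3 fits were made with limma over all genes, with an adjusted p under 0.05 (Benjamini-Hochberg) as a call. The first takes the mean of the 3 time-matched ratios, and called 0.0585% of genes (4 of 6837), none of them an antigen. There TNFRSF17 had a mean log2 ratio of -1.37 ± 0.42 (SE, n = 3 pairs, limma adjusted p = 0.535), and a ratio that differs between times counts as error in this fit. The second takes only the 6 and 12 h pairs, where 2.08% of genes were called lower (142) and 1.54% higher (105). That split depended on the scaling, with 158 lower and 159 higher after quantile normalization and 256 lower and 277 higher with equal medians of the kept genes. In it 2 of the 7 tested antigens were called lower, TNFRSF17 and SDC1, and 1 was called higher, CD6. TNFRSF17 fell by 2.05 ± 0.34 on the log2 scale (SE, n = 2 pairs, limma adjusted p = 0.00169). This fit has 1 residual degree of freedom. Its SE therefore rests mostly on the variance prior drawn from all genes, not on how the 2 pairs differ. The third tests the change of the ratio per doubling of hours, with 1 residual degree of freedom, and called 0.921% of genes downward (63) and 0.512% upward (35). Its prior had infinite degrees of freedom, so its SE and p rest wholly on the variance prior, not on a gene's own scatter. The slope of TNFRSF17 was -1.53 ± 0.24 log2 units per doubling (SE, limma adjusted p = 4.66e-07), and of the antigens CD6 alone was also called, upward. The TNFRSF17 slope was -1.45 and no longer called with equal medians of the kept genes (adjusted p = 0.151). The choice to fit the 6 and 12 h pairs alone rests on earlier results of these data. With the ribosomal RNA signal as a covariate, the mean log2 ratio of TNFRSF17 over the 3 times was -1.04 ± 0.22. It was called there (limma adjusted p = 0.00115), which it was not without the covariate. That covariate fit has 1 residual degree of freedom and called 74 of 6837 genes. At 6 and 12 h, where TNFRSF17 was lower, the signal and enzastaurin cannot be told apart.

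TNFRSF13B, the gene of TACI, did not pass the filter, and without a filter no fit called it. Untreated cells read 52.3, 48.2 and 24.7 and enzastaurin cells 59.5, 48.9 and 48.6 at 3, 6 and 12 h, with log2 ratios of 0.18, 0.02 and 0.98. All 6 values lie below the lowest array median, and 5 of them lie close together, the untreated 12 h array being lower. Of 9 listed ligands, receptors and adaptors around BCMA and TACI, 6 were measured and 5 tested. In the later pairs 1 was called higher, beside 1.54% of all genes. The adaptor TRAF5 rose at 6 and 12 h, with log2 ratios of -0.95, 1.43 and 1.54 and a value of 1.49 ± 0.33 in the fit of the later pairs (SE, limma adjusted p = 0.0169). All arrays with little ribosomal RNA signal had more TRAF5 (248 to 458) than the others (129 to 158). The other 4 were not called, among them TRAF6 with a mean log2 ratio of 0.43 ± 0.31 and TRAF3 with 0.13 ± 0.33 over the 3 times. The list's median ratio was -0.20, 0.26 and 0.48 at 3, 6 and 12 h, beside -0.04, 0.06 and -0.18 over all tested genes. Of the 6 listed subunits of gamma-secretase, which sheds BCMA, 4 were tested and none was called in any fit. Their mean log2 ratios included 0.62 ± 0.32 for PSENEN, 0.38 ± 0.34 for NCSTN and -0.33 ± 0.29 for APH1A (SE, n = 3 pairs).

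SDC1, the gene of CD138, also fell, on both of its probe sets. The tested probe set 201287_s_at read 2319, 2913 and 3278 without enzastaurin and 2490, 1850 and 1229 with it at 3, 6 and 12 h. The treated array was slightly higher at 3 h and lower at 6 and 12 h, and over all 6 arrays the 2 groups overlapped. Its log2 ratios were 0.10, -0.65 and -1.42, and those of the other probe set, 201286_at, were 0.08, -0.78 and -1.35. At 12 h the loss was 2.67-fold on the first and 2.56-fold on the second. In the 6 and 12 h pairs SDC1 fell by 1.04 ± 0.25 on the log2 scale (SE, n = 2 pairs, limma adjusted p = 0.0248), a call lost with a variance prior that ignores intensity (adjusted p = 0.157). The mean over 3 times was -0.66 ± 0.27 (SE, limma adjusted p = 0.834) and the slope -0.76 ± 0.25 per doubling of hours (SE, limma adjusted p = 0.0941), neither of them called. On 201287_s_at all 3 arrays with little ribosomal RNA signal had less SDC1 (1229 to 2319) than the 3 with much (2490 to 3278). On 201286_at these ranges overlapped (774 to 1750 and 1657 to 1979). The part of that signal in the result was not tested beyond the covariate fit. That fit gave -0.46 ± 0.23 (SE, limma adjusted p = 0.827).

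Genes that build or cut the CD138 proteoglycan gave no calls. Of 19 other syndecans and heparan sulfate genes 18 were measured and 9 tested. Those with the largest mean log2 ratio were the polymerase EXT2 (-0.38 ± 0.33), the precursor enzyme UGDH (0.32 ± 0.38) and the linker enzyme B3GAT3 (0.26 ± 0.33). Of 7 sheddases, their inhibitor TIMP3 and heparanase, 4 were tested. MMP14 had a mean log2 ratio of 0.47 ± 0.31, ADAM10 of -0.38 ± 0.25 and ADAM17 of -0.10 ± 0.30 (SE, n = 3 pairs).

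CD38 was near 150 to 180 on every array except 1. Untreated cells read 180, 150 and 156 at 3, 6 and 12 h, and enzastaurin cells 164, 149 and 92.8. Only the enzastaurin array at 12 h stood below the others. The log2 ratios were -0.13, -0.01 and -0.75, and no fit called the gene (-0.38 ± 0.36 for the later pairs, SE, limma adjusted p = 0.672). Among 8 listed NAD and adenosine enzymes of the surface and their partners, 5 were tested and 2 called in the 6 and 12 h pairs, 1 lower and 1 higher, beside 2.08% and 1.54% of all genes. ADA, which removes adenosine, fell by 1.62 ± 0.28 on the log2 scale (SE, limma adjusted p = 0.00307), with ratios of 0.14, -1.63 and -1.61. All arrays with little ribosomal RNA signal had less ADA (458 to 1312) than the others (1395 to 1585). NAMPT, the rate-limiting enzyme of the NAD salvage pathway, was higher with enzastaurin by 1.31 ± 0.26 (SE, limma adjusted p = 0.00723), with ratios of -0.25, 1.51 and 1.11. Its intensity was 2269, 829 and 987 in untreated and 1913, 2354 and 2127 in enzastaurin cells. The treated values lie close together, and the untreated level was lower at 6 and 12 h than at 3 h. All arrays with little ribosomal RNA signal had more NAMPT (2127 to 2354) than the others (829 to 1913). NT5E, the ectoenzyme that forms adenosine, had a mean log2 ratio of 0.33 ± 0.35 and was not called.

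SLAMF7 changed sign between times. Untreated cells read 535, 1464 and 1186 at 3, 6 and 12 h and enzastaurin cells 879, 969 and 840. The treated values lie close together, and it is the untreated array at 3 h that is lowest and the untreated array at 6 h that is highest. The log2 ratios were 0.72, -0.60 and -0.50. The mean was -0.13 ± 0.31 (SE, n = 3 pairs, limma adjusted p = 0.999), and it was 0.11 without the 6 h pair, 0.060 without the 12 h pair and 0.11 with the ribosomal RNA covariate. The later pairs gave -0.55 ± 0.27 (SE, limma adjusted p = 0.339). Of 8 listed SLAM family genes and adaptors 3 were tested and 1 was called lower in the later pairs, beside 2.08% of all genes. LY9 (SLAMF3), another self-ligand receptor, fell by 1.56 ± 0.34 in the later pairs (SE, limma adjusted p = 0.0141), and its ratios of 0.54, -1.60 and -1.51 changed sign in the same way. All arrays with little ribosomal RNA signal had less LY9 (92.9 to 132) than the others (192 to 396). CD48 had ratios of 0.79, -0.69 and -0.22 and the adaptor SH2D1A 0.18, -0.23 and 0.88, and neither was called.

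**Figure D2:**
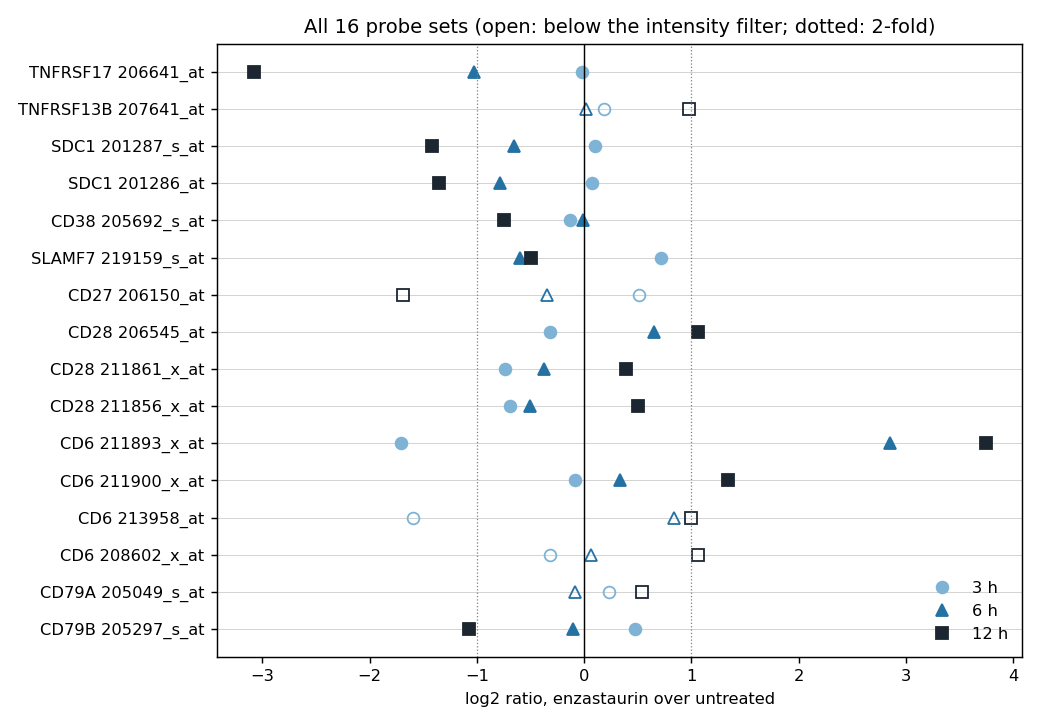
Log2 ratio of enzastaurin over untreated cells (horizontal axis) for all 16 probe sets of the 10 antigens (vertical axis), with 1 symbol for each time and open symbols for probe sets below the intensity filter. The 12 h symbols of TNFRSF17 and SDC1 lie left of the 2-fold line and all 4 CD6 probe sets lie right of 0 at 6 and 12 h, whereas the CD28 probe sets fall on both sides at 6 h.

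CD27 did not pass the filter, and without a filter no fit called it. Untreated cells read 14.5, 20.0 and 25.4 and treated cells 20.6, 15.7 and 7.89, all far under the array medians, with log2 ratios of 0.51, -0.35 and -1.69. CD28 passed the filter, but its probe sets disagreed. The tested probe set 206545_at read 959, 907 and 821 without enzastaurin and 771, 1423 and 1713 with it at 3, 6 and 12 h. On it the treated arrays were lower at 3 h and higher at both later times, with log2 ratios of -0.32, 0.65 and 1.06. The later pairs gave 0.86 ± 0.27 (SE, n = 2 pairs, limma adjusted p = 0.0966), the mean over 3 times was 0.47 ± 0.30 (adjusted p = 0.980) and the slope 0.69 ± 0.32 (adjusted p = 0.354), so CD28 was not called. Quantile normalization (adjusted p = 0.0425), equal medians of the kept genes (0.00716) and testing without a filter (0.0463) each made the later pairs pass the threshold.

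The other CD28 probe sets, 211861_x_at and 211856_x_at, passed the filter and gave ratios of -0.74, -0.38 and 0.39 and of -0.69, -0.51 and 0.50. They share the sign of 206545_at at 3 and 12 h but not at 6 h, and their means over the times were -0.24 and -0.23. The suffix _x_at marks probe sets that hold probes matching other transcripts too. All 3 arrays with little ribosomal RNA signal had more 206545_at (959 to 1713) than the 3 others (771 to 907), and with the covariate the mean log2 ratio was 0.26 ± 0.27. The other CD28 probe sets overlapped between those arrays.

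Ligands and relatives of CD27 and CD28 gave no calls, with 5 tested of 10 listed. CD70, the ligand of CD27, read 217, 121 and 153 in untreated and 212, 89.3 and 67.6 in enzastaurin cells, with ratios of -0.04, -0.44 and -1.18. It was lower in treated cells at every time, and the later pairs gave -0.81 ± 0.38 (SE, limma adjusted p = 0.307). SIVA1, an adaptor that binds CD27, had ratios of 0.56, -0.92 and -1.05 (-0.99 ± 0.35 in the later pairs, limma adjusted p = 0.148). CD86, a ligand of CD28, had a mean of -0.13 ± 0.31 over 3 times, and ICOS, a relative of CD28, 0.31 ± 0.32.

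CD6 had the largest gain among the antigens and the most uneven values. Its tested probe set 211893_x_at read 166, 49.7 and 28.0 without enzastaurin and 50.9, 360 and 376 with it at 3, 6 and 12 h. The untreated arrays alone differed 5.94-fold between 3 and 12 h. The log2 ratios were -1.71, 2.86 and 3.75, so the treated array was 3.27-fold lower at 3 h, 7.25-fold higher at 6 h and 13.4-fold higher at 12 h. These were the 23rd lowest ratio of all genes at 3 h, the 8th highest at 6 h and the 2nd highest at 12 h. In the later pairs CD6 rose by 3.30 ± 0.37 on the log2 scale (SE, n = 2 pairs, limma adjusted p = 5.69e-05), and the slope was 2.73 ± 0.39 per doubling of hours (SE, limma adjusted p = 2.74e-08). The SE of that slope comes from the variance prior alone and holds nothing of how the CD6 ratios scatter about a line. The slope call was lost with equal medians of the kept genes (2.81, adjusted p = 0.155). The mean over all 3 times was 1.63 ± 0.77 (SE, limma adjusted p = 0.908), not called.

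The size of the CD6 gain depended on the probe set. The kept probe set 211900_x_at read 80.4, 108 and 75.2 in untreated and 75.6, 136 and 191 in enzastaurin cells, with ratios of -0.09, 0.34 and 1.34, and so was 2.53-fold higher at 12 h. The probe sets below the filter, 213958_at (ratios of -1.59, 0.84 and 1.0) and 208602_x_at (-0.32, 0.06 and 1.06), had the same signs at each time. Their intensities were only 3.81 to 34.8 and 1.28 to 26.9 over the arrays, so little can be read from these signs. With the median of the kept probe sets, the value for the later pairs was 2.07 (limma adjusted p = 0.000164). All 3 arrays with little ribosomal RNA signal had more of 211893_x_at (166 to 376) than the 3 others (28.0 to 50.9), and with the covariate the mean log2 ratio was 0.73 ± 0.34 (SE, limma adjusted p = 0.730). In the later pairs that signal and enzastaurin cannot be told apart, since both pairs differ in it in the same direction. The T and NK cell markers read 4.41 to 54.6 on all arrays, none above the filter. The kept CD6 probe sets carry the suffix _x_at, and the source of their signal was not tested. ALCAM, the ligand of CD6, was the only tested gene of 4 listed relatives. It read 464, 309 and 300 in untreated and 444, 815 and 319 in enzastaurin cells, with ratios of -0.06, 1.40 and 0.09, higher with treatment at 6 h alone, and it was not called.

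CD79A, a chain of the B cell receptor, missed the filter (and was not called without one), at 42.6, 59.9 and 52.8 in untreated and 50.1, 56.3 and 76.9 in enzastaurin cells, with ratios of 0.23, -0.09 and 0.54. CD79B, the other chain, passed it, at 109, 107 and 167 in untreated and 152, 100 and 79.0 in enzastaurin cells. The treated array was higher at 3 h, level at 6 h and lower at 12 h, with ratios of 0.48, -0.10 and -1.08. No fit called CD79B (-0.59 ± 0.38 in the later pairs, SE, limma adjusted p = 0.495), and its mean of -0.23 became 0.19 without the 12 h pair. Of 14 listed receptor partners and kinases 6 were tested and none called. CD22, an inhibitory co-receptor, had a mean log2 ratio of 0.36 ± 0.29, the kinase LYN 0.24 ± 0.30 and the tetraspanin CD81 -0.22 ± 0.38.

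Single times have 1 array on each side and no test, so genes at least 2-fold apart were counted. At 3 h 4.53% of all genes passed that fold in either direction, and 1 of the 7 tested antigens did (CD6, lower). At 6 h 8.82% of genes did and 2 antigens (TNFRSF17 lower, CD6 higher). At 12 h 10.4% of genes were at least 2-fold lower and 3.88% higher, beside 3 antigens lower (TNFRSF17, SDC1 and CD79B) and 2 higher (CD6 and CD28). The median ratio of the 7 antigens was -0.02, -0.10 and -0.75 at the 3 times, beside -0.04, 0.06 and -0.18 over all genes. Setting the medians of the kept genes equal moved that last median to 0.02. The antigens' ratios at 12 h were then -2.89 for TNFRSF17, -1.22 for SDC1, -0.88 for CD79B, -0.55 for CD38, -0.30 for SLAMF7, 1.26 for CD28 and 3.94 for CD6, so CD79B dropped under 2-fold. The share of the 2-fold genes that were lower was 72.9% at 12 h, but 58.9% after quantile normalization, 49.7% when the kept genes and 76.4% when all probe sets were given equal medians. It was 36.5% at 6 h (46.9% after quantile normalization, 50.6% with equal medians of all probe sets) and 58.4% at 3 h (47.3% and 48.4%). Of the slopes called, 64.3% were downward, but 35.7% after quantile normalization.

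**Figure D3:**
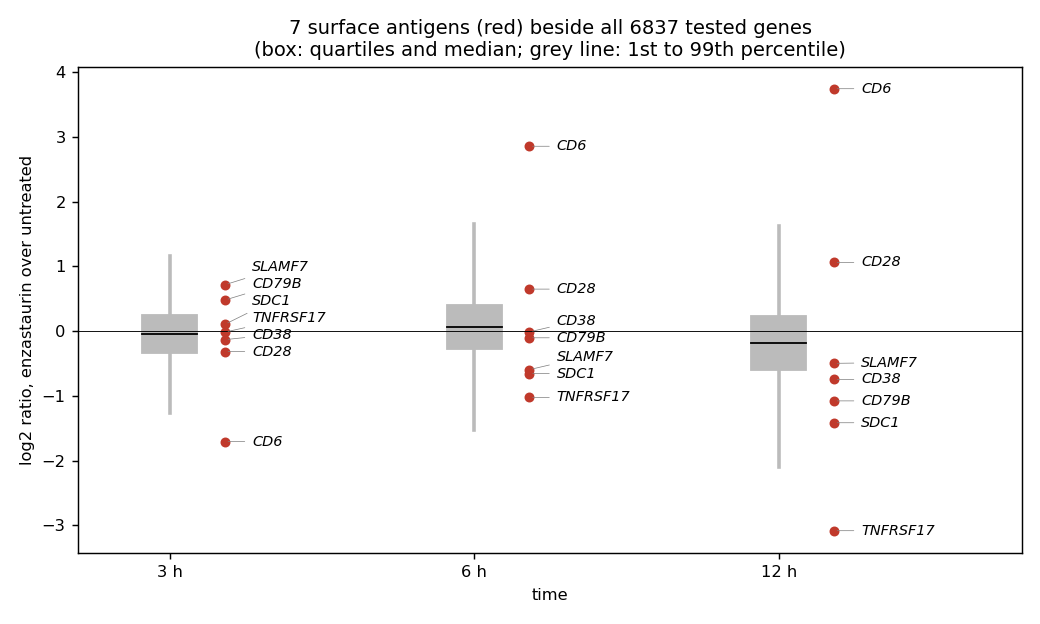
Log2 ratio of enzastaurin over untreated cells (vertical axis) at 3, 6 and 12 h for the 7 tested antigens (red points) beside all 6837 tested genes (grey box, quartiles and median, with a line from the 1st to the 99th percentile). TNFRSF17 at -3.08 and CD6 at 3.75 lie outside the grey line at 12 h, and CD6 does so at 3 h (-1.71) and 6 h (2.86) too.

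Other surface antigens of myeloma moved in both directions. Of 20 listed, 19 were measured and 14 tested. In the later pairs 2 were called lower and 1 higher, beside 2.08% and 1.54% of all genes, and at 12 h the list's median ratio was -0.07. BST2 (tetherin) read 911, 1278 and 964 in untreated and 906, 239 and 330 in enzastaurin cells. It was level at 3 h and fell by 1.98 ± 0.32 in the later pairs (SE, limma adjusted p = 0.00169). GPRC5D, an orphan receptor targeted in myeloma as BCMA is, read 641, 2728 and 1867 in untreated and 1181, 1765 and 409 in enzastaurin cells. It was higher with treatment at 3 h and lower at 6 and 12 h (ratios of 0.88, -0.63 and -2.19), and it fell by 1.41 ± 0.32 in the later pairs (SE, limma adjusted p = 0.0169). The tetraspanin CD9 rose by 1.36 ± 0.29 (SE, limma adjusted p = 0.0115), with ratios of -1.02, 1.66 and 1.06, while ICAM1, an adhesion receptor, had ratios of 0.40, 0.47 and 0.83 and was not called. All arrays with little ribosomal RNA signal, the untreated 3 h array among them, had more CD9 (1286 to 1677) than the others (530 to 659). BST2 and GPRC5D overlapped between those arrays.

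Among regulators of the plasma cell state, IRF4, which plasma cells need, fell by 1.60 ± 0.25 in the later pairs (SE, limma adjusted p = 0.00130), with ratios of -0.18, -1.88 and -1.33. MYC, a growth regulator, fell by 1.31 ± 0.31 (SE, limma adjusted p = 0.0241), with ratios of -0.66, -0.53 and -2.09. XBP1, which drives the secretory program, had ratios of -0.10, 0.46 and 0.26 and was not called, nor was PRDM1 (Blimp-1), with 1.57, -0.76 and -0.64. Of the 9 plasma cell markers, which include 4 of the antigens, 3 were called lower (TNFRSF17, SDC1 and IRF4) and none higher in the later pairs, beside 2.08% and 1.54% of all genes.

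**Figure D4:**
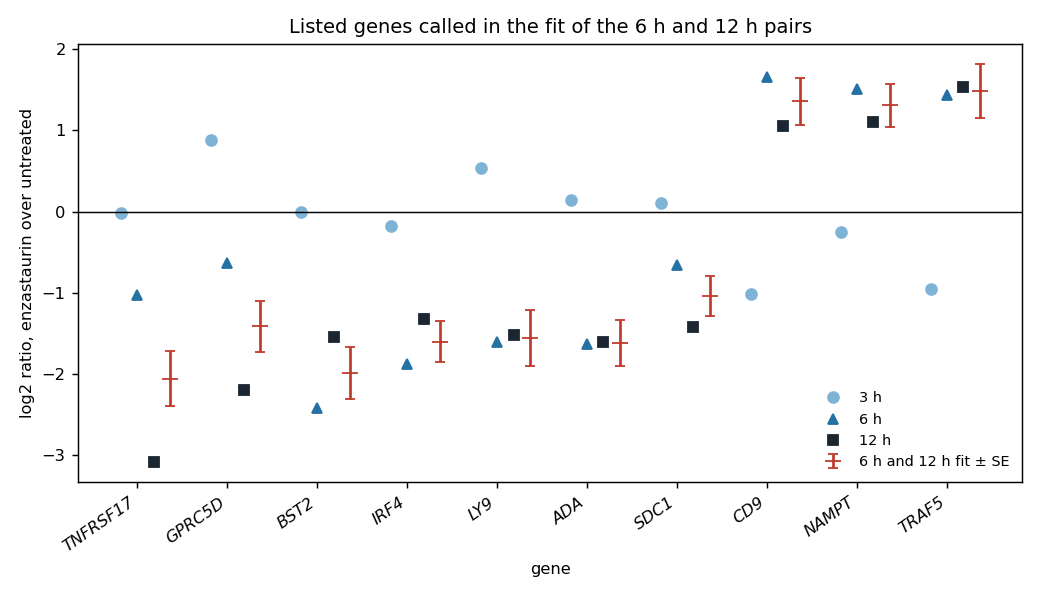
Log2 ratio of enzastaurin over untreated cells (vertical axis) at 3, 6 and 12 h for TNFRSF17, SDC1 and 8 listed genes (horizontal axis) that were called in the 6 and 12 h pairs, with the fitted value and its SE in red. TNFRSF17 and GPRC5D are lower at 12 h than at 6 h, whereas BST2, IRF4 and ADA are near their lowest at 6 h.

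Genes of like pattern were sought among 1192 tested genes (1193 for CD38) whose log2 intensity had an SD of at least 0.5 over the 6 arrays. These correlations describe the same 6 arrays, which share treatment, time and ribosomal RNA signal, and carry no p. Closest to TNFRSF17 were KLHL21 (Pearson r = 0.994), the glycine cleavage enzyme GLDC (0.990) and the aldehyde dehydrogenase ALDH9A1 (0.990). GLDC read 232, 404 and 373 in untreated and 269, 212 and 70.1 in enzastaurin cells. Furthest from it were the kinase TEC (-0.984), the serine synthesis enzyme PSAT1 (-0.972) and the mitochondrial enzyme PCK2 (-0.972). Like SDC1 were AMPD3 (0.995), RUVBL1 (0.990) and NOL6 (0.990), like CD38 PLIN2 (0.984), USP19 (0.981) and UBOX5 (0.978), and like CD6 ERCC4 (0.986), EDAR (0.986) and the histone gene H3-3A (0.977). Among the antigens themselves r was 0.969 for TNFRSF17 with SDC1, 0.886 for TNFRSF17 with CD38, 0.903 for CD28 with CD6 and -0.915 for SDC1 with CD28, the last being the lowest and the first the highest of all pairs. For SLAMF7 with each other tested antigen r ran from -0.501 (CD6) to 0.398 (SDC1).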

How the data were processed

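The deposited values are linear MAS5 intensity values that the authors made, per the submitters' processing notes, from biotin-labelled cRNA of 6 Affymetrix arrays. The MAS5 version, scaling target and detection calls (not given in the sources used here) are unknown. No reads exist, and the number of arrays limits the precision.

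Intensities were floored at 1 and log2 transformed with the authors' scaling kept. Of 22215 non-control probe sets, 19064 had 1 symbol in the platform annotation, 1043 several and 2108 none. Symbols were updated through Entrez identifiers (19052 matched) in RefSeq's table for GRCh38.p14. Fits used limma 3.58.1 in R 4.3.3 (lmFit, eBayes with an intensity trend) with the time point as a block, Benjamini-Hochberg adjustment over all 6837 genes, and a prior of 9.26 degrees of freedom (mean of 3 pairs), 16.8 (later pairs) or infinite (slope). They were tested on simulated data. Arrays were grouped through their titles.

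The antigens, the gene lists and the fit of the later pairs were chosen with earlier results of these data known. From each list at most the 3 genes with the largest mean ratio were to be named, apart from the antigens and the 4 regulators. CD9, CD86, CD44 and JCHAIN fall outside that rule and were named after their values were seen. The table of ribosomal RNA signal beside each antigen was also added after the values were seen. Alternatives changed the filter, the probe set, the pseudocount, the scaling, the variance prior, the time pairs, the time block and a ribosomal RNA covariate.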

Additional observations from a re-analysis of the deposited data

Results flagged for a closer look

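Of the antigens and listed genes, 4 are named here because limma called the slope of their log2 ratio per doubling of hours. Among all 6837 genes, 98 had a called slope. Scaling the arrays to a common median over kept genes left 0 slope calls, so the calls depended on the processing. The slopes of TNFRSF17 and CD6 themselves were -1.45 and 2.81 there, close to the values below. The slope was -1.53 for TNFRSF17 (adjusted p = 4.66e-07), with a ratio near 0 at 3 h and negative later, and 2.73 for CD6 (adjusted p = 2.74e-08), whose ratio was negative at 3 h and positive at 6 and 12 h. It was -1.54 for GPRC5D (adjusted p = 0.000284), positive at 3 h and negative later. It was 0.69 for JCHAIN, the joining chain of secreted immunoglobulin (adjusted p = 0.0163), with ratios of -0.50, 0.39 and 0.87. These tests have 1 residual degree of freedom, and their SEs rest wholly on the variance prior. The ribosomal RNA signal also differs in sign between the 3 h pair and the later pairs, and its part in the slopes was not tested.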

How the results depend on the processing

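Of the log2 ratios and slopes of single antigens recomputed under alternatives, 212 kept direction and side of the threshold, 8 gained a call, 3 lost one and 7 changed sign. Changes of the filter, the variance prior or the time block, and testing every kept probe set, leave each value itself unchanged. No direction could change there. The mean without the 3 h pair is the same fit as the later pairs, so its gained calls (TNFRSF17, SDC1 and CD6) repeat that fit. The mean of 3 pairs called 4 genes, but 1 without the filter, 1 with equal medians of all probe sets, 0 without the intensity trend (360 at an unadjusted p under 0.05 in limma), 0 without the 6 h pair (169), 0 without the 12 h pair (134), 247 without the 3 h pair, 2 without the time block and 74 with the ribosomal RNA covariate. The later pairs called 247 genes, but 564 without the filter, 372 with the median over probe sets, 533 with equal medians of kept genes and 133 without the trend. The slope called 98, but 151 without the filter, 167 with equal medians of all probe sets, 14 after quantile normalization and 0 with equal medians of kept genes (675 at an unadjusted p under 0.05). In that last setting 0 in place of 2 antigens were called, with slopes of -1.45 for TNFRSF17 (adjusted p = 0.151) and 2.81 for CD6 (0.155). The slope of SDC1 was called with equal medians of all probe sets (-0.80, adjusted p = 0.0160). Means that changed sign were CD28, at -0.24 with the median over probe sets and -0.23 and -0.24 on its other probe sets, SLAMF7, at 0.11 without 6 h, 0.060 without 12 h and 0.11 with the covariate, and CD79B, at 0.19 without 12 h. The cause was not tested. TNFRSF17 and CD6 were called in the later pairs under all 9 alternatives run for that fit, with an adjusted p of at most 0.0466 and 0.00134. Arrays were paired by time alone, through the time block of the fits, because the labels give no replicate numbers. The 3 antigens below the filter were tested only without it, and no fit called them.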

Other observations

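CD44, the hyaluronan receptor of myeloma cells, was tested through 212063_at, with log2 ratios of 0.20, 0.29 and -0.07 at 3, 6 and 12 h. Another kept probe set, 216056_at, read 84.3, 44.1 and 28.5 in untreated and 23.3, 251 and 319 in enzastaurin cells, with ratios of -1.85, 2.51 and 3.49. These lie near the ratios of CD6 on 211893_x_at (-1.71, 2.86 and 3.75), and the other 6 kept CD44 probe sets had ratios from -0.26 to 0.75 over the 3 times. This probe set was singled out after its values were seen.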
